A study of Mus musculus with 58 samples.

Results

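Rapgef4 is 1 of the 22556 genes counted in this series, and it was chosen by its rise in chromatin-associated RNA after doxycycline. Its total count and the counts of its 2 alleles are described here in all 58 libraries, with the 20 counted genes within 1 Mb on chromosome 2 as context. Because the gene was picked on the change from embryonic stem (ES) day 0 to day 1, that change is given as a description with no test, and tests are kept for comparisons that the choice did not use. The libraries are chromatin RNA sequencing (ChrRNA-seq) of female mouse ES cells from a cross of a 129S strain (Mus musculus domesticus, the Dom allele) with Mus musculus castaneus (the Cast allele).

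All lines carry a doxycycline-inducible promoter in front of Xist on the Dom X chromosome (iXist-ChrX-Dom) and express the doxycycline-responsive activator. WT is that parent line. SPOC has point mutations in the SPOC domain of SPEN, the part of this Xist-binding repressor that contacts the NCoR and SMRT corepressors, and was measured as clones C11, D9 and H1. PCGF35 carries FKBP12 tags on PCGF3 and PCGF5, subunits of the Polycomb complex PRC1, so that dTAG-13 degrades both proteins, and PCGF35_SPOC has the tags and the SPOC mutation together in clones F10 and F6. DelPID lacks the PID region of Xist, through which PCGF3/5-PRC1 is recruited, and DelPID_SPOC (clones A8 and G3) has the SPOC mutation in addition. Doxycycline was given at 1 ug/mL, and dTAG-13 (100 uM in the labels) was started 12 h before it; "ctrl" marks the untreated libraries of a tagged line. The 13 uninduced libraries are ES day 0, 13 are ES day 1 of doxycycline, and 32 are neural precursor cell (NPC) differentiation day 3 or 6 with doxycycline. WT and DelPID were analysed on the NPC days alone. No NPC library without doxycycline was analysed here, so doxycycline and differentiation cannot be told apart on those days. Each of the 28 groups held 2 libraries, except SPOC on ES day 0 and day 1, which held 3. The study describes its numbered replicates as replicate experiments and its treated and untreated cells as grown side by side. It also states that WT was differentiated in parallel with SPOC clones D9 and H1, and DelPID in parallel with the DelPID_SPOC clones. The labels do not say which numbered replicate went with which clone, so mutant and parent libraries were compared as unpaired.

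Rapgef4 encodes EPAC2, a guanine nucleotide exchange factor that is opened by binding of cyclic AMP and then loads the small GTPases Rap1 and Rap2 with GTP. It is one of the pair of cyclic AMP sensors of this kind, the other being EPAC1 from Rapgef3, and it acts beside protein kinase A, the other main receiver of cyclic AMP. EPAC2 is best known in brain and in endocrine cells such as pancreatic beta cells, where it promotes exocytosis of vesicles together with the active zone proteins Rim and Piccolo.

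In the annotation used for counting, Rapgef4 covers chr2:71981214-72257474 of mm10 on the plus strand, a span of 276261 bases with 4 transcripts, one start of which lies further in, at 72054616. Fragments from introns were counted as well as those from exons. In GENCODE vM21 the gene (ENSMUSG00000049044.16) has 11 transcripts, 3 of them protein coding, and their merged exons take up 6677 bases, or 2.42% of the counted span, so introns make up most of the length over which fragments were counted. Rapgef4os1, Rapgef4os2 and Rapgef4os3 lie on the opposite strand inside it. They are not among the genes counted here, and counting used the strand. The sequence before the RefSeq start is shown because doxycycline acts in this system through a DNA-binding activator. Its 250 bases, chr2:71980965-71981214 (plus strand, GRCm38.p6, RefSeq), are printed 5′ to 3′ with matches to the GC box (GGGCGG or its reverse complement CCGCCC, overlapping matches counted) in capitals.
Rapgef4 promoter: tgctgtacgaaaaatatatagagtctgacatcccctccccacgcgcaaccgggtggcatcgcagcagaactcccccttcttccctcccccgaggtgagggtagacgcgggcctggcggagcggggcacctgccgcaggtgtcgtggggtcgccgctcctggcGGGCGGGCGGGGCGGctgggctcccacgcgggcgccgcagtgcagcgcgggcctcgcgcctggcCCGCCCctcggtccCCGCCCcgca
The capitals hold 5 matches, and the stretch holds 30 CG pairs. Over the 300 bases from 250 before to 50 after the start, 76.7% of bases were G or C, above 97.3% of the 32851 promoters of that length, whose median was 52.7%. The same window held 40 CG pairs against a median of 7. A GC box was found in 35.7% of all promoters. The core letters of the tet operator (ATCAGTGAT, either strand) were not in this window, and 0.146% of promoters held them. Neither the cyclic AMP response element TGACGTCA, found in 1.79% of promoters, nor TATAAA, found in 13.6%, was in the window, on either strand. These values cover the first start alone, and the sequence before the start at 72054616 was not read.

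Library depth ran from 2292261 to 30005305 fragments assigned to genes. The shallowest were DelPID replicate 1 on NPC day 6 (2292261 fragments) and day 3 (6372321 fragments). Xist, the check of doxycycline, was at 34.2 to 135 counts per 1000000 assigned fragments (CPM) on ES day 0 and 2377 to 5347 CPM on ES day 1, with no overlap. Replicate 1 of dTAG-treated PCGF35 stood apart, since 62.4% (day 0) and 79.4% (day 1) of its allelic Xist fragments were from Dom, against 94.9% or more in the other libraries outside the SPOC day 0 group. The day 0 SPOC libraries also held Cast Xist fragments, with Dom shares of 54.5% to 86.5%, at levels of 34.2 to 67.2 CPM of Xist. The 6 ES cell markers summed to 1022 to 1853 CPM on day 0, 1123 to 1958 CPM on day 1 and 314 to 1179 CPM in NPC libraries. The NPC markers, 5 genes, summed to 24.4 to 104 CPM, 25.8 to 112 CPM and 25.8 to 394 CPM in the same order. Neuronal markers summed to 94.7 to 208, 96.8 to 214 and 112 to 292 CPM, and fibroblast markers, which would mark feeder cells, to 0.51 to 26.8, 0.62 to 15.0 and 0.80 to 140 CPM. Sox2 among the ES markers and Sox1 among the NPC markers were at 0 in every library, and Fabp7 was at 0 in at least 1. Fragments overlapping more than 1 gene were left out of the counts, so a count of 0 does not show that a gene is silent. Whether this applies to Sox2 and Sox1 was not tested. ES marker sums overlapped between day 0 and day 1. The part of these markers in the NPC levels of Rapgef4 was not tested, and fewer expressing cells and less RNA per cell cannot be told apart in bulk libraries.

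Rapgef4 was low before doxycycline and high in every library after it. It was at 4.28 to 25.4 CPM in the 13 day 0 libraries (median 14.1), from 67 to 565 fragments each, and at 67.0 to 210 CPM in the 13 ES day 1 libraries (median 112), from 1107 to 4622 fragments. The 32 NPC libraries lay between 41.5 and 214 CPM (median 99.7). The lowest induced library was thus above the highest uninduced one, a separation that the choice of the gene made likely. Per kilobase of its span the gene stayed a weakly covered one, at 0.016 to 0.092 RPKM on day 0 and 0.242 to 0.761 RPKM on ES day 1.

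**Figure D1:**
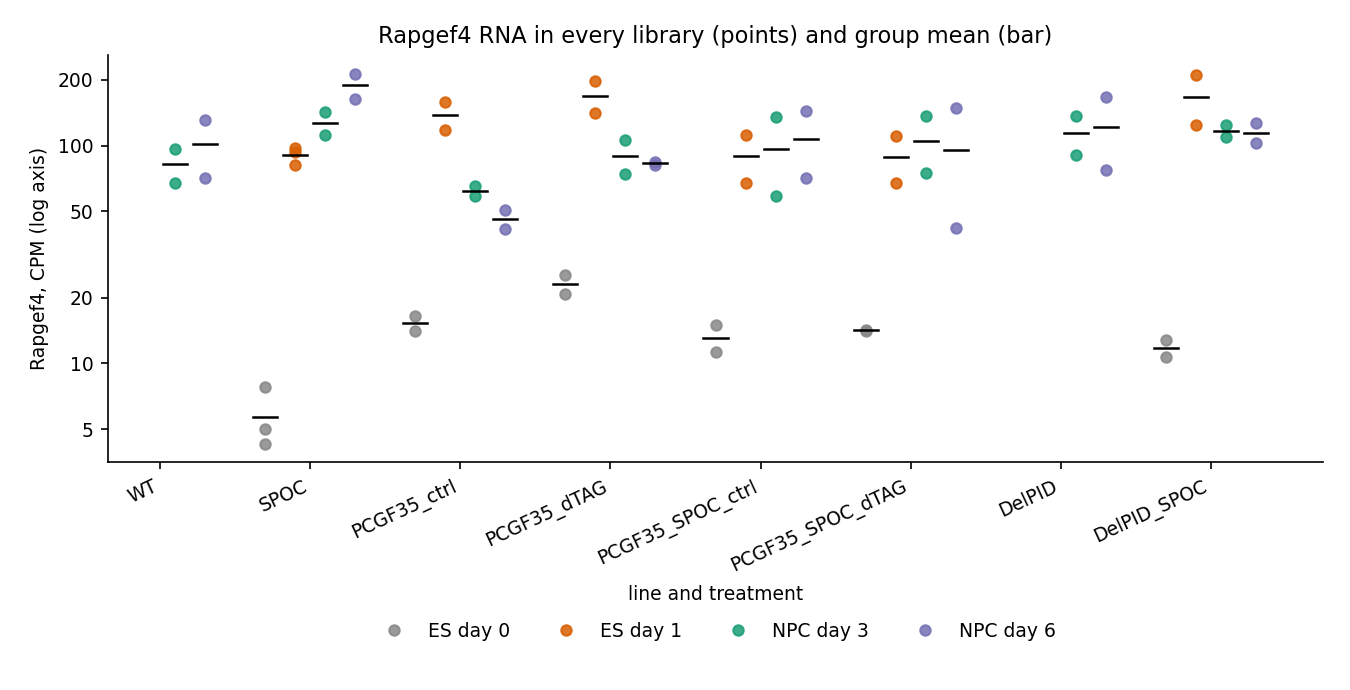
Rapgef4 RNA in CPM (log axis) in each library, by line and treatment along the horizontal axis, with points for libraries, colours for ES day 0, ES day 1, NPC day 3 and NPC day 6, and bars for group means. The 13 day 0 libraries sit at or below 25.4 CPM, and all 45 induced libraries sit at or above 41.5 CPM.

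The SPOC line had the lowest starting level, at 4.28, 4.99 and 7.82 CPM in clones C11, D9 and H1. On day 1 the same clones stood at 93.7, 97.8 and 81.1 CPM. The group mean thus went from 5.70 ± 1.87 CPM (SD, n = 3) to 90.9 ± 8.71 CPM (SD, n = 3), a ratio of 15.95. In DelPID_SPOC the day 0 values were 10.7 (A8) and 12.8 CPM (G3), and the day 1 values were 125 and 210 CPM, a ratio of means of 14.2. G3 on day 1 was the highest ES library. The study describes a clone of this line, labelled clone G, as tetraploid, and lists its clones as A8 and G3.

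Untreated PCGF35 went from 16.6 and 14.1 CPM to 158 and 118 CPM in replicates 1 and 2, a ratio of means of 8.98. With dTAG-13 the day 0 values were the highest of any uninduced group, 20.8 and 25.4 CPM, and the day 1 values were 197 and 141 CPM, a ratio of 7.31. In untreated PCGF35_SPOC, clone F10 went from 11.3 to 112 CPM and clone F6 from 15.0 to 67.3 CPM. Treated libraries of the same clones went from 14.1 to 110 CPM (F10) and from 14.2 to 67.0 CPM (F6). The ratios of means were 6.82 and 6.25. The day 1 values of each clone were thus close with and without dTAG-13, and F10 was above F6 both times.

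In the fit of all 58 libraries by edgeR, the log2 fold change from day 0 to day 1, averaged over the 6 arms, was 3.21 (SE 0.195), a 9.25-fold difference. Of 16227 genes tested, Rapgef4 ranked 3 by this value, after Xist and Pvalb, and within the 6 arms it ranked from 2 (SPOC) to 15 (treated PCGF35). By log2 fold change over its SE it ranked 2 in each arm. The value was 3.95 (SE 0.422) in SPOC, 3.83 (SE 0.502) in DelPID_SPOC, 3.18 (SE 0.488) in untreated PCGF35, 2.89 (SE 0.478) in treated PCGF35, 2.77 (SE 0.482) in untreated PCGF35_SPOC and 2.63 (SE 0.479) in treated PCGF35_SPOC. Leaving out replicate 1 of treated PCGF35 on both days, which held Cast Xist RNA, gave 3.14 for the mean, and leaving out the SPOC arm, whose day 0 libraries also did, gave 3.06. The spread of these values between arms comes from the same contrast and is likewise a description.

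Both alleles were higher on day 1 than on day 0 in every arm. About 47.0% of all assigned fragments could be placed on an allele. The Cast allele of Rapgef4 lay at 1.66 to 8.69 allelic fragments per 1000000 assigned fragments on day 0 and at 24.3 to 62.5 on ES day 1. The Dom allele lay at 0.639 to 8.24 and at 18.8 to 71.7. The ratio of means for Cast and Dom was 12.5 and 24.0 in SPOC, 10.3 and 26.4 in DelPID_SPOC, 7.48 and 10.8 in untreated PCGF35, and 6.69 and 7.92 in treated PCGF35. It was 5.20 and 9.23 in untreated PCGF35_SPOC, and 4.69 and 7.72 in treated PCGF35_SPOC. The Dom ratio was above the Cast ratio in all 6 arms, which share the contrast that chose the gene.

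**Figure D2:**
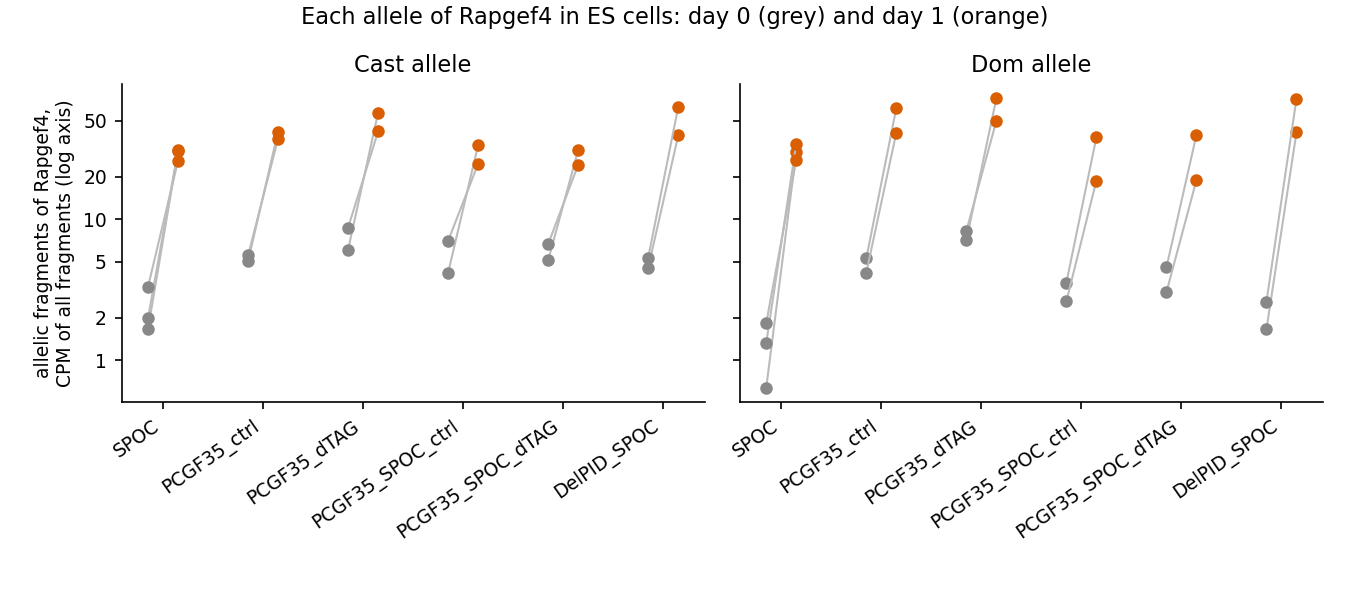
Allelic fragments of Rapgef4 per 1000000 assigned fragments (log axis) in ES cells, Cast allele on the left and Dom allele on the right, by line and treatment, with day 0 in grey, day 1 in orange and a line joining the same replicate or clone. Cast points move from 1.66 to 8.69 up to 24.3 to 62.5, and Dom points from 0.639 to 8.24 up to 18.8 to 71.7.

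The Dom share of allelic Rapgef4 fragments was low in several uninduced libraries. It was 27.8%, 40.0% and 35.6% in SPOC clones C11, D9 and H1 on day 0, from 36, 55 and 73 allelic fragments. In C11 the 95% Wilson interval, which covers counting error only, ran from 15.8% to 44.0%. DelPID_SPOC stood at 26.8% (A8) and 32.8% (G3). In PCGF35_SPOC on day 0, clone F6 was at 27.1% untreated and 31.3% treated, and clone F10 at 46.0% and 47.1%. PCGF35 without the SPOC mutation ranged from 43.0% to 53.9%. The rest of chromosome 2 gave Dom shares of 52.4% to 54.1% across all 58 libraries.

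On ES day 1 the Dom share of Rapgef4 was 43.2% to 59.5% (median 52.8%), and in NPC libraries it was 44.8% to 60.7% (median 53.1%). The 2 libraries of clone F6 were the lowest on day 1, at 43.2% untreated and 43.8% treated, with intervals of 39.8% to 46.7% and 40.3% to 47.3%. Clone F10 was at 53.2% and 56.1% on that day. On NPC days 3 and 6 the 4 F6 libraries lay at 48.4% to 51.1% and no longer stood below those of F10, which lay at 45.7% to 52.4%.

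**Figure D3:**
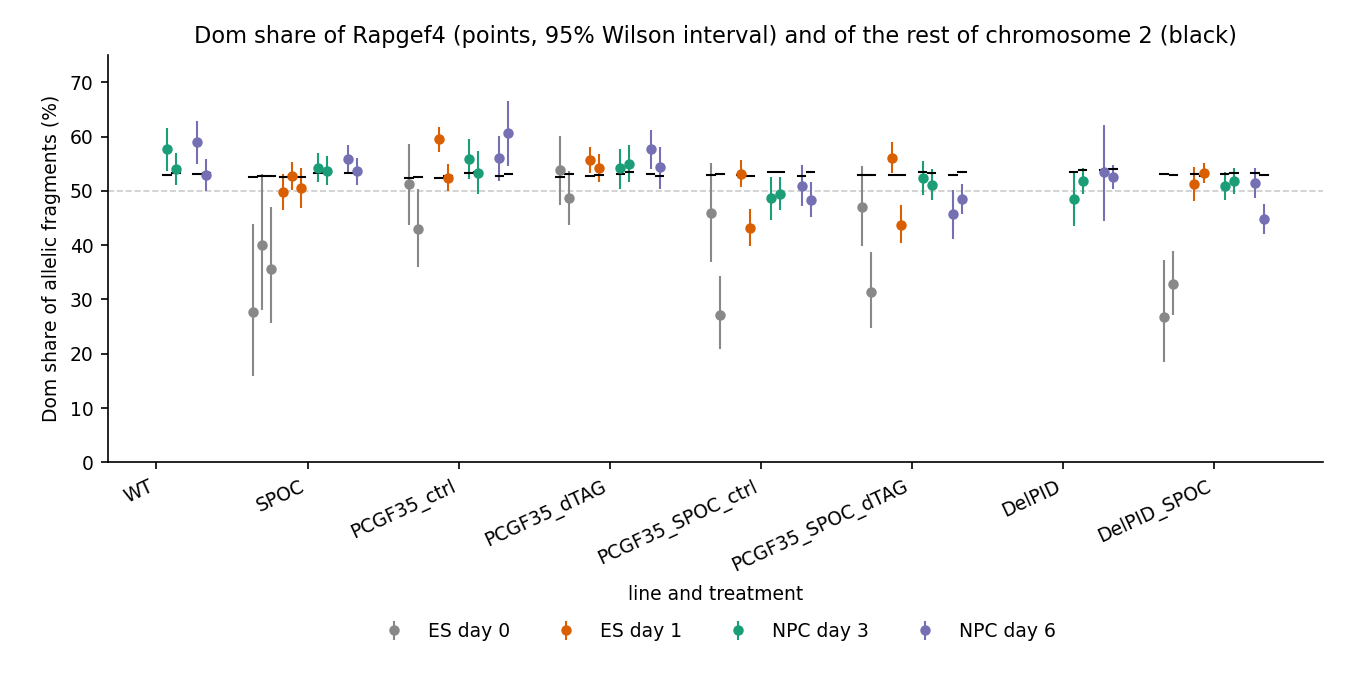
Dom share of allelic Rapgef4 fragments (%) in each library, by line and treatment, with points for libraries, vertical bars for 95% Wilson intervals, colours for day and stage, and black dashes for the rest of chromosome 2. Day 0 points reach down to 26.8%, induced points lie between 43.2% and 60.7%, and the chromosome 2 dashes lie between 52.4% and 54.1%.

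The SPOC mutation went with a lower Dom share of Rapgef4 in NPC libraries, all of which had doxycycline. The share was 55.8% and 55.9% on days 3 and 6 in WT and 54.0% and 54.7% in SPOC (means of 2 libraries). It was 54.6% and 58.4% in untreated PCGF35 and 49.1% and 49.7% in untreated PCGF35_SPOC. DelPID was at 50.1% and 53.0%, and DelPID_SPOC at 51.4% and 48.1%. The mean difference over the 6 pairs of line and day was -3.48 percentage points (exact two-sided permutation test within line pair and day, 24 libraries, p = 0.00896, 0.0269 after Benjamini-Hochberg adjustment over the 3 share tests), and it was negative in all pairs but DelPID on day 3. The same clones and numbered replicates enter on both days, so these libraries are not fully independent. The test shuffled each day on its own, so the p values of this comparison can be too small. The Dom share of the rest of chromosome 2 differed by -0.12 points (p = 0.339, exact permutation), and with that share subtracted the difference of Rapgef4 was -3.36 points (p = 0.0117, exact permutation).

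The Dom share did not pass the test in the other share comparisons. With dTAG-13 against untreated after doxycycline it differed by -0.253 points over 24 libraries (exact permutation p = 0.847). Between NPC day 6 and day 3 it differed by 0.189 points over 32 libraries (exact permutation p = 0.832).

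Among induced groups the total level of Rapgef4 was lowest in untreated PCGF35 on NPC day 6, at 41.5 and 50.4 CPM, followed by the same line on day 3, at 58.9 and 64.9 CPM. It was highest in SPOC on NPC day 6, at 164 and 214 CPM. In the order of the 28 group means, from 5.70 to 189 CPM, neighbouring groups overlapped from the ninth place, WT on NPC day 3 (82.2 ± 20.8 CPM, SD, n = 2), up to the top. The day 0 groups took the first 6 places, and of these the lowest, SPOC, and the highest, treated PCGF35, did not overlap with the groups next to them.

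The question of whether SPEN-SPOC loss changed the induced level was tested in NPC libraries, where each mutant line has its parent. From a few marker genes, the study reports tentative evidence that SPOC cells differentiate defectively. The mutation's effect on the induced level and on differentiation cannot be told apart on these days. WT stood at 67.4 and 96.9 CPM on day 3 and 71.2 and 131 CPM on day 6. SPOC stood at 112 and 143 CPM on day 3 and 164 and 214 CPM on day 6, above WT on both days without overlap. DelPID was at 90.9 and 136 CPM on day 3 and 77.2 and 167 CPM on day 6, and DelPID_SPOC at 110 and 124 CPM and then 103 and 127 CPM, inside the range of DelPID.

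Untreated PCGF35_SPOC was split by clone. F10 was at 58.6 and 70.9 CPM on days 3 and 6, and F6 at 135 and 144 CPM. The treated libraries showed the same order, with F10 at 74.8 and 42.0 CPM and F6 at 136 and 148 CPM. F6 was thus above F10 in all 4 NPC groups, whereas F10 was above F6 in both ES day 1 groups. The study found some cells with a single X chromosome in clone F6, and sub-cloned it before sequencing. For a separate clone of this line, labelled G3 in its legend, it describes an allelic skew in NPC samples. It interprets this skew as selection for cells that lost the Cast X chromosome. The part of either in the Rapgef4 levels was not tested.

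The mean log2 difference between SPOC-mutant and parent lines was 0.55 (SE 0.182, edgeR adjusted p = 0.0539), which did not pass 0.05, in a comparison in which 7.86% of 16227 genes did. With the clone or replicate as a block within each line it was 0.54 with an adjusted p of 0.0206 (edgeR). That block takes the spread between clones out of the residual, while mutant and parent lines are compared across clones, so its p can be too small. The same clones and numbered replicates enter on both NPC days, so these libraries are not fully independent. Without clone F10, the lower clone here and left out after its values were seen, the difference was 0.71, with a single library left per PCGF35_SPOC group. By line pair the difference was 0.81 (SE 0.316, edgeR adjusted p = 0.172) for SPOC against WT. For untreated PCGF35_SPOC against PCGF35 it was 0.92 (SE 0.319, edgeR adjusted p = 0.287). For DelPID_SPOC against DelPID it was -0.07 (SE 0.315, edgeR adjusted p = 0.946). None of these pairs passed 0.05. The difference between the line pairs did not pass either (F = 2.92, adjusted p = 0.473, edgeR). Without the 2 shallow DelPID libraries the mean was 0.45 (adjusted p = 0.205, edgeR). Beside this, 5 single libraries decided the call, and those values are given with the processing alternatives.

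Degradation of PCGF3/5 did not give a called change. In PCGF35 after doxycycline, treated libraries were at 197 and 141 CPM against 158 and 118 CPM on ES day 1. On NPC day 3 they were at 73.7 and 106 CPM against 64.9 and 58.9 CPM, and on NPC day 6 at 84.4 and 81.0 CPM against 50.4 and 41.5 CPM. The groups overlapped on ES day 1 and did not on either NPC day. The mean log2 difference was 0.58 (SE 0.258, edgeR adjusted p = 1). In this comparison 0% of genes were called by edgeR, 672 of 16227 had an unadjusted p under 0.05, and DESeq2 called 1. Without replicate 1 of the treated line on ES day 1, which held Cast Xist RNA, the difference was 0.47. The treated library was above the untreated one of the same number and day in 6 of 6 pairs. How many other genes show this order, or the lack of overlap on the NPC days, was not counted. With that number within each day as a block, since the cells were cultured in parallel, the difference was 0.57 (SE 0.177, edgeR adjusted p = 0.147), and 118 genes were called.

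In PCGF35_SPOC after doxycycline the log2 difference with dTAG-13 was -0.04 (SE 0.257, edgeR adjusted p = 1), with 0.00616% of genes called, and the treated library was the higher in 3 of 6 pairs of the same clone and day. The effect in PCGF35_SPOC minus that in PCGF35 was -0.62 (SE 0.364, adjusted p = 1, edgeR). Before doxycycline, over both tagged lines, the difference with dTAG-13 was 0.37 (SE 0.328, edgeR adjusted p = 1). There 0% of genes were called by edgeR, 202 had an unadjusted p under 0.05, and DESeq2 called 0.

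DelPID and WT were compared on the NPC days, and the log2 difference was 0.41 (SE 0.316, edgeR adjusted p = 0.462), with 7.56% of genes called. NPC day 6 and day 3 differed by 0.03 (SE 0.158, edgeR adjusted p = 0.935) over 8 arms, with 21.3% of genes called. In single arms that value ran from -0.51 (SE 0.45) in untreated PCGF35 to 0.59 (SE 0.445) in SPOC, and the difference between arms did not pass (F = 0.574, adjusted p = 1, edgeR). Xist, by comparison, was at 3788 to 9110 CPM on NPC day 3 and 4488 to 13370 CPM on NPC day 6.

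**Figure D4:**
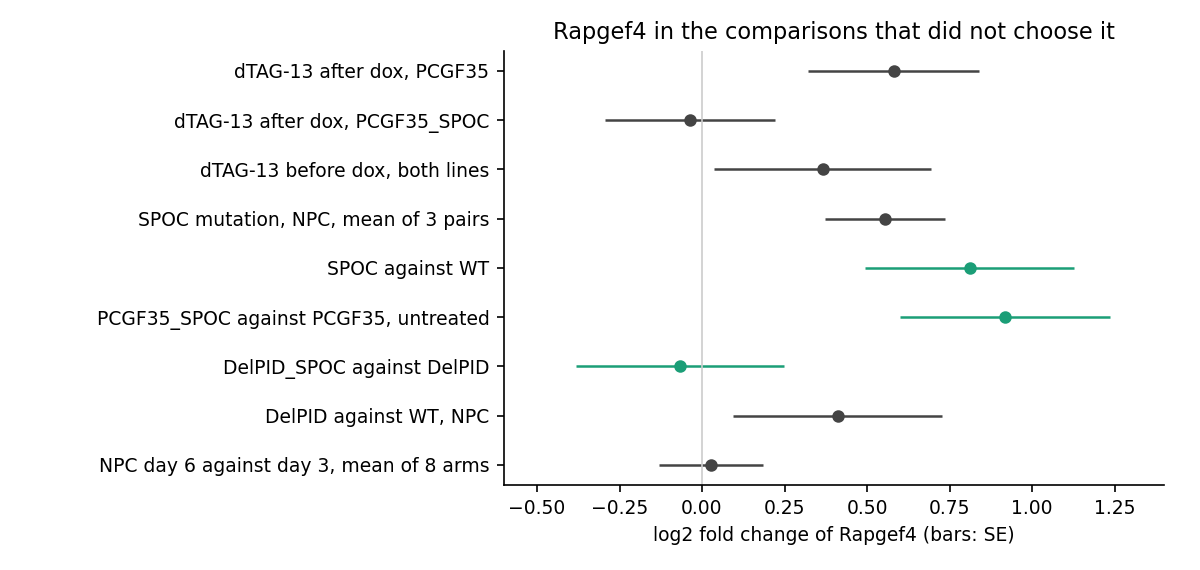
Log2 fold change of Rapgef4 (horizontal axis, bars for SE) in the 6 comparisons that did not choose the gene, in grey, and in the 3 line pairs that make up the SPOC comparison, in green. The values run from -0.07 (DelPID_SPOC against DelPID) to 0.92 (untreated PCGF35_SPOC against PCGF35), against 3.21 for the day 1 rise, which is off this axis.

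The genes around Rapgef4 did not share its rise. The count files hold 20 genes within 1 Mb, of which 16 had enough counts to be tested, and none of the 16 was called from day 0 to day 1 by edgeR or by DESeq2, with 1 at an unadjusted p under 0.05. Across all 16227 genes tested 15 were called (0.0924%), 6 higher and 9 lower, a count that includes Rapgef4 itself, for which it is no test, and DESeq2 called 36. An unadjusted p under 0.05 was reached by 658 of the 16227. The neighbours' median log2 fold change was -0.004, with 8 above and 8 below 0, beside -0.003 over all genes. The nearest gene after Rapgef4, 28.2 kb from its end, is Zak, a stress-activated kinase, which gave 0.10 (SE 0.068). The nearest before it, 77.4 kb from its start, is Pdk1, an inhibitor of pyruvate dehydrogenase, which gave 0.16 (SE 0.144). Itga6, an integrin subunit, had the one unadjusted p under 0.05 (0.15, SE 0.0645, edgeR adjusted p = 1).

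The other tested neighbours lay between -0.22 and 0.30 on the log2 scale. Before Rapgef4 these were Mettl8 (-0.01), Dcaf17 (0.01), the iron reductase gene Cybrd1 (-0.22), the dynein subunit gene Dync1i2 (-0.02), the mitochondrial carrier gene Slc25a12 (-0.05), the histone acetyltransferase gene Hat1 (0.11), Metap1d (-0.07) and Gm1631 (-0.22). After it they were Cdca7 (0.00), 6430710C18Rik (0.30), the transcription factor gene Sp3 (-0.03), its antisense partner Sp3os (0.04) and Ola1 (-0.03). The SE was largest for 6430710C18Rik, at 0.283. Dlx1, Dlx1as, Dlx2 and 8430437L04Rik were at 0.405 CPM or below in all ES libraries and were not tested. Per length, Zak was at 0.955 to 1.66 RPKM and Pdk1 at 3.16 to 9.22 RPKM on day 0, and both lay above Rapgef4 in all uninduced libraries.

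**Figure D5:**
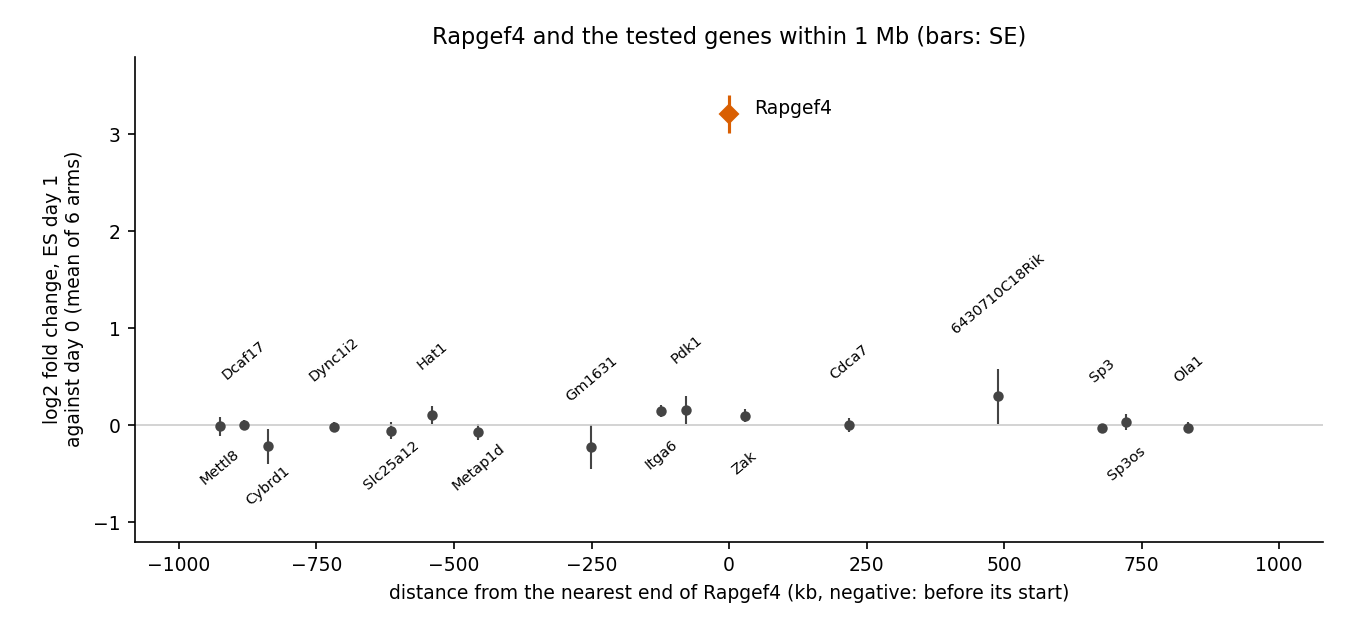
Log2 fold change from ES day 0 to day 1 (vertical axis, bars for SE, mean of 6 arms) of Rapgef4 and the 16 tested genes within 1 Mb, against the distance from the nearer end of Rapgef4 in kb (negative before its start). Rapgef4 stands at 3.21, and the other genes lie between -0.22 and 0.30.

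The other genes of the cyclic AMP, EPAC and Rap pathway were followed through a list of 54 genes in the files, all of which were tested. None was called from day 0 to day 1 by edgeR or by DESeq2, beside 0.0924% of all genes called. An unadjusted p under 0.05 was reached by 6 of the 54, beside 658 of all 16227. The list's median log2 fold change was 0.04, with a range of -0.36 to 0.48. Of the 54 genes, 36 lay above 0 and 18 below, beside 7881 above and 8346 below over all genes tested. Whether the list differs as a set was not tested. Rapgef3 (EPAC1), the closest relative, gave -0.01 (SE 0.127). Per length Rapgef3 was at 0.331 to 0.546 RPKM on day 0, above Rapgef4 in all of those libraries, and at 0.266 to 0.708 RPKM on ES day 1, where the ranges overlapped. In NPC libraries Rapgef3 was at 0.053 to 0.281 RPKM and Rapgef4 at 0.15 to 0.773 RPKM.

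By role, the 6 other exchange factors had a median of 0.03, the 5 Rap GTPases 0.04 and the 6 Rap GTPase-activating proteins, which switch Rap off, 0.17. The 10 adenylate cyclases, which make cyclic AMP, had a median of 0.07, the 10 phosphodiesterases, which break it down, -0.01, and the 6 protein kinase A subunits -0.02. The 11 partners and effectors, with Rims1, Rims2 and Pclo of the exocytosis machinery among them, had 0.05. The genes with an unadjusted p under 0.05, chosen after their values were seen, were Rapgef5 (0.15), Rap1gap (0.19), the phosphodiesterase gene Pde4c (0.31), Rassf5 (0.29) and Rundc3a (0.48) above 0 and the GTPase gene Rap2c (-0.24) below it. Their adjusted p lay between 0.37 and 1 (edgeR).

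The genes whose levels were most like those of Rapgef4 over the 58 libraries, by Pearson's r of log2(CPM + 0.5), were Xist (0.865), Cdh3 (0.76), Duox1 (0.732), Pvalb (0.668) and Nebl (0.65). Over the 26 ES libraries they were Xist (0.959), Duox1 (0.867), Pvalb (0.856), Cdh3 (0.847) and Il9r (0.72). The points share the split into uninduced and induced libraries, and these values are a description. Within the 45 induced libraries alone, Pearson's r of log2 CPM between Xist and Rapgef4 was -0.441. Within the 13 ES day 1 libraries it was 0.166. The high r with Xist thus rests on the split between uninduced and induced libraries. Cdh3, which encodes P-cadherin, was at 44.0 to 67.6 CPM on ES day 0 and 71.1 to 121 CPM on day 1, with no overlap. Duox1, an oxidase gene that also lies on chromosome 2, was at 0.302 to 2.3 CPM and then 1.44 to 12.1 CPM. Pvalb, which encodes the calcium-binding protein parvalbumin, was at 0 to 0.139 CPM on day 0 and at most 1.27 CPM on day 1, levels of a few fragments. Cdh3 was thus present before doxycycline, while Duox1 was at 2.3 CPM or below in all day 0 libraries and its ranges overlapped. Over the 6 arms the log2 fold changes of Cdh3 and Duox1 were 0.80 (SE 0.079) and 2.11 (SE 0.286), below the 3.21 of Rapgef4. That of Pvalb was 3.96 (SE 0.416), above it.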

How the data were processed

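ChrRNA-seq libraries were made by the authors with a stranded total RNA kit. Reads matching ribosomal RNA were removed with Bowtie2 (2.3.2), the rest were aligned with STAR (2.4.2a) to mm10 with strain-variable bases masked, split by allele with SNPsplit, and counted with featureCounts (1.5.2). Per the file headers, fragments were counted over whole transcripts on the sense strand, and those overlapping more than 1 gene were left out. The deposited values are raw counts per gene for all fragments, for Cast and for Dom. CPM is a count per 1000000 assigned fragments, and RPKM divides CPM by the kilobases of the gene's span.

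Rapgef4 and the gene lists were chosen with earlier results of these data known. The named genes were fixed by rule: Rapgef4, its antisense genes, tested neighbours within 1 Mb, Rapgef3, pathway genes with an adjusted p under 0.05, the 5 genes most correlated with Rapgef4 over all and over ES libraries, and Xist. The pathway genes with an unadjusted p under 0.05 and the untested neighbours were named after their values were seen. Counts were fitted with edgeR 4.0.16 (R 4.3.3, TMM, filterByExpr, quasi-likelihood, 1 mean for each of 28 groups, Benjamini-Hochberg over 16227 genes), SE being the absolute log2 fold change over the square root of F. Scripts were tested on simulated data. Dom shares were compared by exact permutation (scipy 1.17.1), with Wilson intervals at 95%. Alternatives were DESeq2 1.42.0 size factors and Wald test, library totals without scaling, a minimum of 1 count per gene, the groups compared alone, a block, and leaving out each of 58 libraries with the dispersion trend kept. Alternatives without replicate 1 of dTAG-treated PCGF35, the SPOC arm, the shallow libraries or clone F10, and with a block within line and day, were added after the data were seen. Clone names pair libraries of the SPOC lines, since a clone is the same cell line on each day. Deviations from group means correlated at 0.271 to 0.769 in DelPID_SPOC and 0.219 to 0.842 in PCGF35_SPOC. They ranged from -0.05 to 0.54 in SPOC and from -0.025 to 0.668 in PCGF35 over all days. Between treated and untreated PCGF35 of the same day they were 0.186 to 0.658, and these cells were cultured in parallel, so the number pairs them within a day. One gene of the NPC marker list is not reported here.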

Additional observations from a re-analysis of the deposited data

How the results depend on the processing

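The day 1 rise of Rapgef4 lay between 3.04 and 3.24 (log2) in all 9 other settings and between 3.13 and 3.27 with any 1 library left out. The mean SPOC difference in NPC libraries passed 0.05 with library totals alone (0.55, adjusted p 0.0492, edgeR) and with the DESeq2 Wald test (0.55, adjusted p 0.0308). It also passed with the replicate or clone as a block (0.54, adjusted p 0.0206, edgeR). Without clone F10 it was 0.71. The replicate or clone block takes the spread between clones out of the residual of a comparison made across clones, so its p can be too small. Neither this block nor one within line and day changed another call, though the latter raised the genes called with dTAG-13 in PCGF35 from 0 to 118 and in PCGF35_SPOC from 1 to 2. With 1 library left out it ran from 0.417 to 0.641. It passed without DelPID replicate 2 on NPC day 3 (adjusted p 0.0496) or day 6 (0.0268), without untreated PCGF35_SPOC clone F10 on day 3 (0.0231) or day 6 (0.0246), and without WT replicate 2 on day 6 (0.0345). The cause was not tested.

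Differences near 0 turned sign. The dTAG-13 difference in PCGF35_SPOC was 0.011 without clone F10 and ran from -0.437 to 0.218 with 1 library left out. NPC day 6 against day 3 ran from -0.115 to 0.133. The Dom share difference with dTAG-13 ran from -1.28 to 0.775 points, and that between NPC days from -0.229 to 0.607 points, or -0.0756 without the shallow libraries. No such value passed its test, and the cause was not tested. The Dom share difference of the SPOC lines ran from -4.04 to -2.92 points with 1 library left out (exact permutation p from 0.00244 to 0.0246). These p values shuffle each day on its own as well and can be too small. The DelPID difference from WT ran from 0.131 to 0.707. DESeq2 called 36 genes from day 0 to day 1 against 15 by edgeR, and 4 against 1 with dTAG-13 in PCGF35_SPOC. No neighbour or pathway gene was called in any setting. Day 0 Dom shares rest on 36 to 376 allelic fragments.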

Other observations

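The promoter windows of the genes most like Rapgef4 in level were read from RefSeq for the same features, over 300 bases. Each start listed was read for these genes, and the first start alone for Rapgef4. Cdh3 was not analysed here. Xist had 41.3% G or C bases, 15 CG pairs and 1 TATAAA. Duox1 (46.7%, 6 CG pairs) and Il9r (54.3%, 5 CG pairs) held no GC box, while 1 of the 4 Nebl starts held 1. Pvalb starts had 67.7% and 58.3% G or C bases. None of these windows held the tet operator core letters, and each had fewer CG pairs than the 40 of Rapgef4. The windows are reference sequence, so that of Xist lacks the inducible promoter placed in front of Xist in these lines. Binding of the activator was not tested.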
